A study of Homo sapiens with 12 samples.

Results

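Genes of the unfolded protein response and of the ATF4 amino acid response were followed in sorted cells of 2 established human prostate cancer cell lines, DU145 and PC3. The 39 genes were taken by symbol from the 18950 genes of the expression table, and comprise chaperones of the endoplasmic reticulum (ER), stress sensors, stress transcription factors and the amino acid genes that ATF4 controls. All 39 were in the table, and all 39 passed the minimum of 1 CPM, a count scaled to library size, in at least 3 of the 12 libraries, as did 12527 genes in all. Each line carried a green fluorescent protein (GFP), whose construct the labels do not describe. By GFP intensity, the brightest 10% (GFP+) were taken as having active, and the dimmest 10% (GFP-) as having inactive, Wnt/β-catenin signaling. The 4 groups, DU145 GFP+, DU145 GFP-, PC3 GFP+ and PC3 GFP-, had 3 libraries of total RNA each, all from cells grown in DMEM with serum and given no drug or stressor in the labels. The labels do not state that replicate libraries had cultures or sorts of their own, so the p-values measure the spread between these libraries, which may be technical.

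Proteins that enter the ER are folded there by chaperones, and unfolded protein releases the chaperone BiP from sensors in the ER membrane. The sensor IRE1 splices XBP1 mRNA, ATF6 is cut to release a transcription factor, and PERK phosphorylates the initiation factor eIF2α, which lowers translation in general while raising that of ATF4. ATF4 is also reached from amino acid shortage and other stresses through other eIF2α kinases, and it turns on genes for amino acid synthesis and uptake, transfer RNA charging and feedback. The activity of XBP1 and ATF4 depends on splicing and translation, which gene counts do not show.

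The libraries held 13453614 to 21528810 estimated counts, at which 3 counts correspond to at most 0.233 CPM. The keratin genes KRT8 and KRT18 were expressed in both lines, with KRT8 at 1753 ± 193 CPM in DU145 GFP+ and 2755 ± 169 CPM in DU145 GFP- cells and at 18.1 ± 2.09 CPM in PC3 GFP+ and 26.1 ± 2.43 CPM in PC3 GFP- cells. KRT8 fell in GFP+ cells of both lines (log2 fold change -0.66 ± 0.10 in DU145 and -0.53 ± 0.10 in PC3) and KRT18 in those of DU145 (-0.52 ± 0.12), and their part in the results was not tested. The other 3 epithelial markers, KRT19, EPCAM and CDH1, averaged at most 0.381 CPM in any group, and the luminal prostate markers KLK3, KLK2 and TMPRSS2 at most 0.0584 CPM. Of 3 leukocyte markers in the table, the summed level stayed at or below 0.889 CPM in every library, that of 3 endothelial markers at or below 1.19 CPM and that of 3 fibroblast markers at or below 3.71 CPM, the highest being in PC3 GFP+ cells. The GFP+ to GFP- fold changes of DU145 followed the GC content of the transcripts (Spearman rho -0.63 across 12510 genes, which are not independent replicates). Their median was 0.50 on the log2 scale for the 20% of genes with the lowest GC content, and -0.26 for the 20% with the highest, while in PC3 rho was -0.10. DU145 GFP+ replicate 3 stood apart from replicates 1 and 2, from which it differed by 24.5 and 20.3 times the variance of sampling, against 5.85 times between replicates 1 and 2. In PC3 the widest pair was GFP- replicates 2 and 3, at 40.0 times. Results are therefore also given with the trend in GC content and length removed, without DU145 GFP+ replicates 1 and 2, and without PC3 GFP- replicates 2 and 3.

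Promoter sequence is shown for 5 genes that carry the results, because both responses act through known promoter elements. RefSeq (GRCh38.p14) windows of 250 bases before to 50 bases after the transcription start were matched by symbol for 36 of the 39 genes, and no window was matched for PDIA3, SHMT2 and SLC7A11. The ER stress element was searched as CCAAT and CCACG with 9 bases between them, its variant ERSE-II as ATTGG and CCACG with 1 base between them, and the composite C/EBP and ATF element (CARE), to which ATF4 binds, as TGATGNAA, each on both strands. The ER stress element was found in windows of 7 genes (HSPA5, HSP90B1, CALR, CANX, CRELD2, PDIA6 and XBP1), ERSE-II in 3 (HERPUD1, HYOU1 and SDF2L1) and the CARE letters in 5 (ASNS, ATF3, CHAC1, HERPUD1 and SLC3A2). A gene could have more than 1 window, CANX having 4, and was counted if any of its windows matched. Of the 53 windows of the 36 genes, 17.0% held the first, 5.66% the second and 9.43% the third. Of all 35116 windows, 0.0769% held the first, 0.0541% the second and 3.62% the third. No stretch of sequence was a match to more than 1 of these elements in the windows shown. Such a match is a description of the letters and not of binding. The 250 bases before the start of ASNS and CHAC1, at chr7:97872409-97872658 (minus strand) and chr15:40953221-40953470 (plus strand), have the CARE letters in capitals, on the reverse strand in CHAC1:
ASNS: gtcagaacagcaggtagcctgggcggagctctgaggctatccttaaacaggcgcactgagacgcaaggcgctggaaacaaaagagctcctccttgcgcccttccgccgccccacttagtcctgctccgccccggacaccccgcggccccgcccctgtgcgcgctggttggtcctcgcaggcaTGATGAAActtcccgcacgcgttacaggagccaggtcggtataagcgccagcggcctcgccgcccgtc
CHAC1: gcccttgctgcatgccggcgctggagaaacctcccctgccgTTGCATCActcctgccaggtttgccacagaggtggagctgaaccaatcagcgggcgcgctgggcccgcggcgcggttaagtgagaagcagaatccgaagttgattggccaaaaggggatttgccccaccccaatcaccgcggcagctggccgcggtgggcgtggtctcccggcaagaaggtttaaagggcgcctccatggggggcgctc
The 250 bases before the start of HSPA5, HSP90B1 and XBP1, at chr9:125241344-125241593 (minus strand), chr12:103930160-103930409 (plus strand) and chr22:28800570-28800819 (minus strand), have both ends of the ER stress element in capitals, with a second element on the reverse strand in HSP90B1:
HSPA5: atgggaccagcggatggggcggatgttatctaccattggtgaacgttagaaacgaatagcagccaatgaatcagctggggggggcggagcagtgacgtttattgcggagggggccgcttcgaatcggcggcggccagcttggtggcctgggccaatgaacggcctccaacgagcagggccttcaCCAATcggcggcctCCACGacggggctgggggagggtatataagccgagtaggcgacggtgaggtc
HSP90B1: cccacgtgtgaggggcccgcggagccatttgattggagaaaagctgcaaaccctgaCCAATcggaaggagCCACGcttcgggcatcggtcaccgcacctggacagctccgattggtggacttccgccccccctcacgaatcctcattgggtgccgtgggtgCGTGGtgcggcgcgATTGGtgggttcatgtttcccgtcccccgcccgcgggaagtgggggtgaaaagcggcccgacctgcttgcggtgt
XBP1: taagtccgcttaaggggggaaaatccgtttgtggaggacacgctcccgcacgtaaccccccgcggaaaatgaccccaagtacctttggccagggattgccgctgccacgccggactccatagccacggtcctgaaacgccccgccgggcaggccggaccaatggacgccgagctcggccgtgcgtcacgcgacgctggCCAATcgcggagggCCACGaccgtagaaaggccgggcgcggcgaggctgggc
ASNS and CHAC1 both fell in DU145 GFP+ cells. Of the other genes with the CARE letters, SLC3A2 fell there while ATF3 and HERPUD1 did not pass. PSAT1, PHGDH, CBS, SLC7A5 and TRIB3 fell without a CARE match in their windows. The 3 genes shown with the ER stress element went different ways, HSP90B1 rising and XBP1 falling in DU145 while HSPA5 fell in PC3. Among the others with this element, CRELD2 fell in DU145, and CALR, CANX and PDIA6 passed in neither line. A relation between element and direction was not tested.

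The first comparison asked which of these genes differed between GFP+ and GFP- cells of DU145. The amino acid genes of the ATF4 response fell in GFP+ cells, with 5 of 6 synthesis genes and 2 of 3 transporter genes lower and none higher, and the ATF4 feedback genes TRIB3 and CHAC1 fell with them. ASNS, which makes asparagine, stood at 90.4 ± 2.09 CPM in DU145 GFP+ and 155 ± 10.9 CPM in DU145 GFP- cells (SD, n = 3 each). Over all 39 genes, 12 fell, 4 rose and 23 did not pass (limma with Benjamini-Hochberg adjustment over 12527 genes, adjusted p under 0.05). Across all genes tested, 27.1% were called, 13.9% lower and 13.1% higher, against 41.0%, 30.8% and 10.3% of the 39, so the share that rose was close to that of all genes. The median log2 fold change was -0.10 over the 39 genes, -0.52 over the 9 amino acid genes and -0.01 over all genes tested. A lower level in a sorted bulk sample can mean fewer expressing cells or less RNA per cell, and the 2 cannot be told apart.

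**Figure D1:**
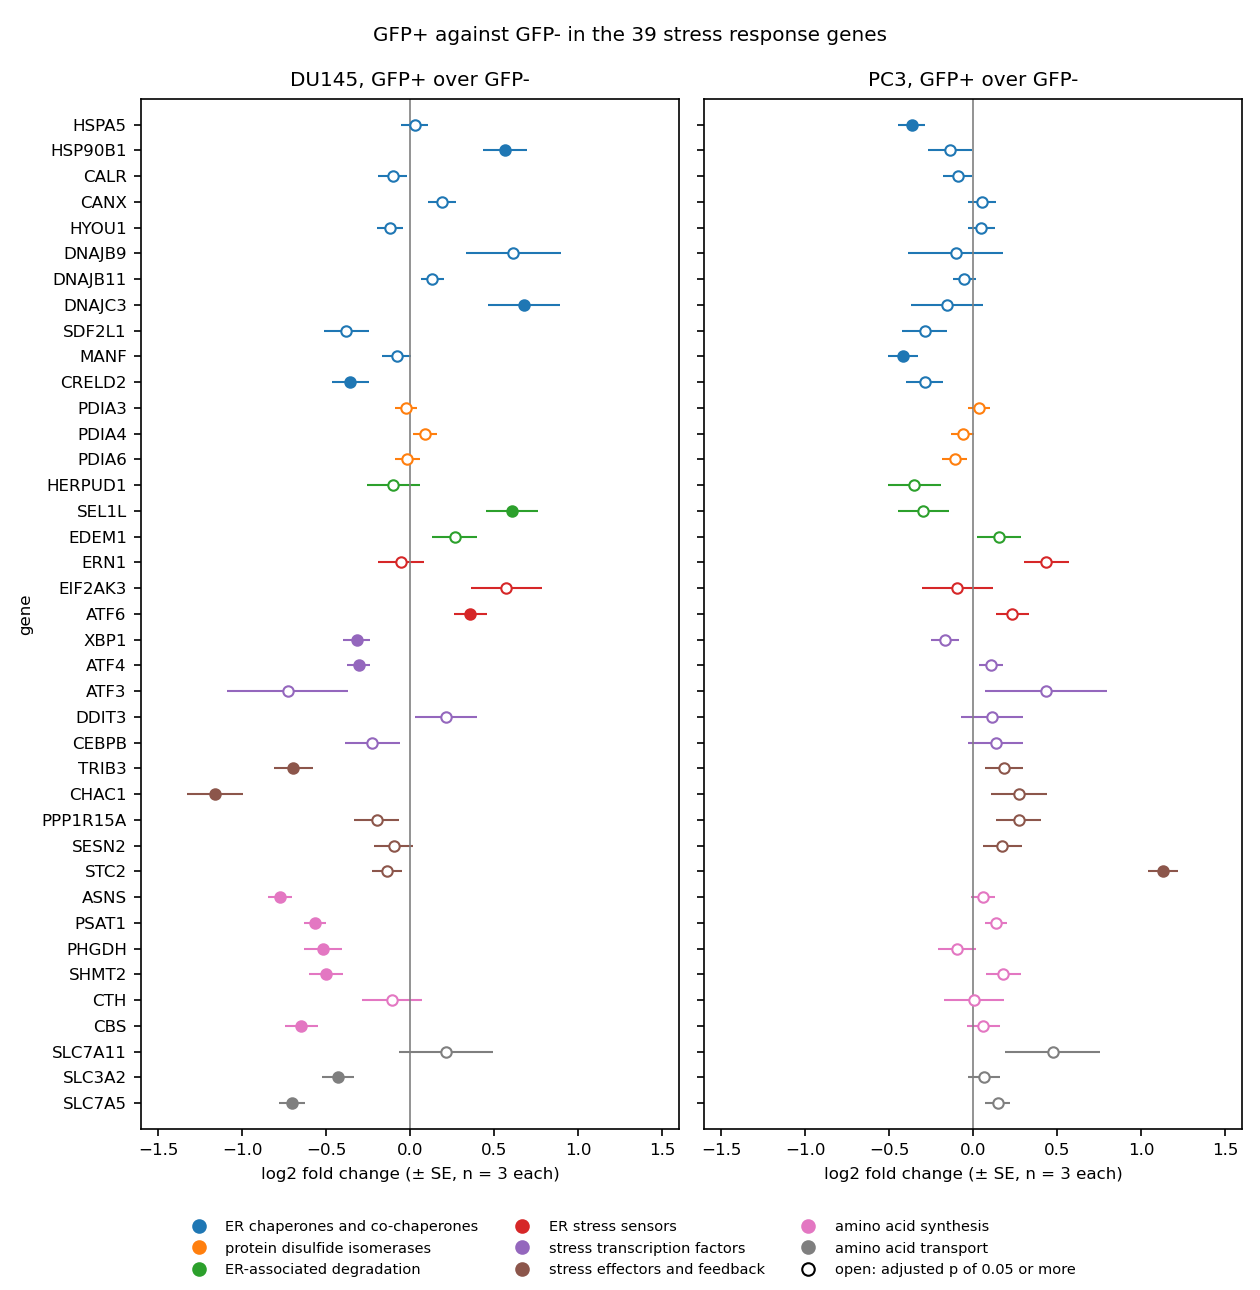
Log2 fold change of GFP+ over GFP- (horizontal axis, ± SE, 3 libraries per group) for each of the 39 genes, DU145 on the left and PC3 on the right. Filled points passed an adjusted p of 0.05, and color gives the role. In DU145, 12 genes lie left of 0 as filled points, 9 of them amino acid genes, TRIB3 and CHAC1, while PC3 has 3 filled points, HSPA5, MANF and STC2.

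Among the synthesis genes, ASNS (ENSG00000070669, chromosome 7, 97852118 to 97872542, GRCh38) had 88.4, 92.6 and 90.2 CPM in DU145 GFP+ libraries, against 168, 150.1 and 148 CPM in DU145 GFP- libraries. The groups did not overlap (log2 fold change -0.78 ± 0.07, limma adjusted p = 2.83e-05). Here and below, separation of 3 libraries from 3 is a description and not a test. Its share over all genes is not given. PHGDH, the enzyme that opens serine synthesis from a glycolytic intermediate, had 188, 177 and 215 CPM in DU145 GFP+ libraries, against 273, 261 and 296 CPM in DU145 GFP- libraries. Its highest GFP+ library, replicate 3, lay below all 3 GFP- libraries (log2 fold change -0.52 ± 0.11, limma adjusted p = 0.00922). PSAT1, which carries out the next step of serine synthesis, had 136, 144 and 137 CPM in DU145 GFP+ libraries, against 198, 214 and 206 CPM in DU145 GFP- libraries. Its GFP+ libraries lay within a narrow range below the GFP- libraries (log2 fold change -0.57 ± 0.07, limma adjusted p = 0.000217). SHMT2, the mitochondrial enzyme that turns serine into glycine, had 273, 263 and 337 CPM in DU145 GFP+ libraries, against 423, 379 and 429 CPM in DU145 GFP- libraries. Here too GFP+ replicate 3 was the highest of its group and below every GFP- library (log2 fold change -0.50 ± 0.10, limma adjusted p = 0.00653). CBS, which joins homocysteine and serine on the way to cysteine, had 108, 108 and 118 CPM in DU145 GFP+ libraries, against 174, 165 and 184 CPM in DU145 GFP- libraries (log2 fold change -0.65 ± 0.10, limma adjusted p = 0.00117). Estimated counts of CBS were fractional in each of the 12 libraries, and the gene has a near-identical copy, CBSL, so its level is uncertain. CTH, which releases cysteine in the following step, was low, at 4.08 ± 0.115 CPM in DU145 GFP+ and 4.399 ± 0.0223 CPM in DU145 GFP- cells, and did not pass (log2 fold change -0.11 ± 0.18, limma adjusted p = 0.668).

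Amino acid transport followed the same direction for the large neutral amino acid transporter, whose light and heavy chains are SLC7A5 and SLC3A2. SLC7A5 (ENSG00000103257, chromosome 16, 87830023 to 87869488) had 399, 372 and 434 CPM in DU145 GFP+ libraries, against 665, 620.4 and 675 CPM in DU145 GFP- libraries, groups that did not overlap (log2 fold change -0.70 ± 0.08, limma adjusted p = 8.71e-05). SLC3A2, which is also the heavy chain of the cystine carrier, had 141, 133 and 160.4 CPM in DU145 GFP+ libraries, against 206, 178 and 202 CPM in DU145 GFP- libraries (log2 fold change -0.43 ± 0.10, limma adjusted p = 0.00916). Its highest GFP+ library was again replicate 3. SLC7A11, the light chain of the cystine carrier, had a low level in DU145, with 2.62, 3.103 and 2.91 CPM in DU145 GFP+ libraries, against 3.12, 2.81 and 1.74 CPM in DU145 GFP- libraries. It did not pass (log2 fold change 0.21 ± 0.28, limma adjusted p = 0.583), and its groups overlapped.

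TRIB3, a pseudokinase that restrains ATF4 and CHOP, had 143, 139.8 and 195 CPM in DU145 GFP+ libraries, against 258, 237 and 273 CPM in DU145 GFP- libraries (log2 fold change -0.70 ± 0.12, limma adjusted p = 0.00209). CHAC1 (ENSG00000128965, chromosome 15, 40952962 to 40956519), an enzyme that degrades glutathione, had the largest fall of the 39 genes, with 4.64, 5.09 and 6.09 CPM in DU145 GFP+ libraries, against 13.1, 9.26 and 13.3 CPM in DU145 GFP- libraries. It stood at 0.447 times the GFP- level, with groups that did not overlap (log2 fold change -1.16 ± 0.17, limma adjusted p = 0.00092), from 227 estimated counts in GFP+ and 560 in GFP- cells. The other 3 effectors did not pass in DU145. They were PPP1R15A, the phosphatase subunit that reverses eIF2α phosphorylation (log2 fold change -0.20 ± 0.14, limma adjusted p = 0.272), the leucine sensor gene SESN2 (log2 fold change -0.10 ± 0.12, limma adjusted p = 0.53) and STC2, a secreted glycoprotein gene (log2 fold change -0.14 ± 0.09, limma adjusted p = 0.242). The calls of the 9 falling genes ASNS, PSAT1, PHGDH, SHMT2, CBS, SLC7A5, SLC3A2, TRIB3 and CHAC1 held when any 1 of the 12 libraries was left out. Leaving out both DU145 GFP+ replicates 1 and 2 leaves replicate 3 as the only GFP+ library, which is then assumed to vary like the libraries of the other groups. On that assumption ASNS, PSAT1 and SLC7A5 kept their calls, while CHAC1 (adjusted p = 0.0762), CBS (0.0943), TRIB3 (0.162), SHMT2 (0.375), PHGDH (0.383) and SLC3A2 (0.401) did not pass in limma.

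**Figure D2:**
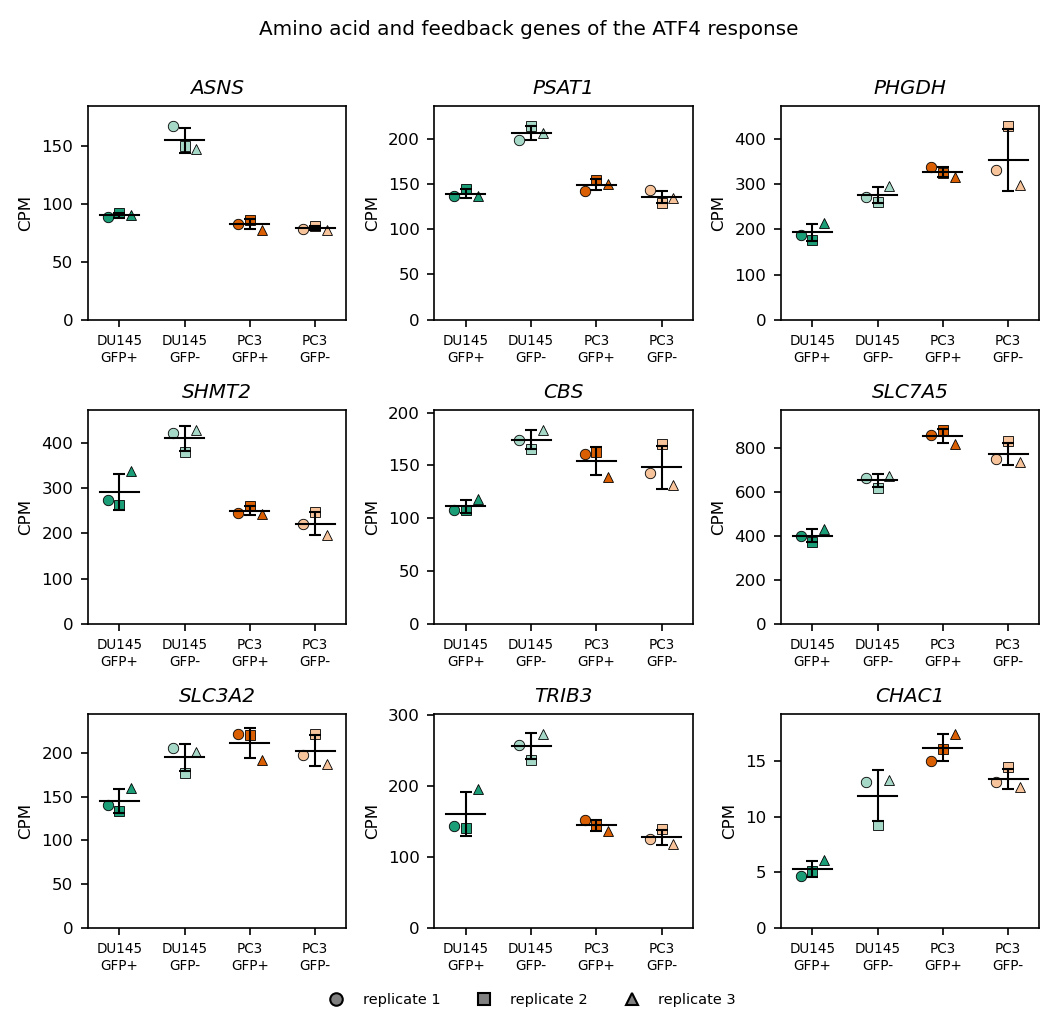
CPM per library (vertical axis, from 0) of 9 amino acid and feedback genes in DU145 GFP+, DU145 GFP-, PC3 GFP+ and PC3 GFP- cells, with the mean and SD of 3 libraries as lines and the replicate as the symbol. The 9 genes are ones called lower in DU145 GFP+ cells, so their separation there is no further test. In DU145 every GFP+ point lies below every GFP- point in all 9 panels, and GFP+ replicate 3 is the highest of its group in 7 of them, ASNS and PSAT1 being the exceptions.

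Among the stress transcription factors, ATF4 and XBP1 fell in DU145 GFP+ cells. ATF4 (ENSG00000128272, chromosome 22, 39519695 to 39522685) had 260.5, 283 and 312 CPM in DU145 GFP+ libraries, against 359, 341 and 357 CPM in DU145 GFP- libraries, without overlap (log2 fold change -0.31 ± 0.07, limma adjusted p = 0.0106). Its call was lost without GFP+ replicate 1 (adjusted p = 0.0555), after quantile normalization (0.126) and with the GC and length trend taken out (0.302). XBP1 had 101, 108 and 110.5 CPM in DU145 GFP+ libraries, against 136, 129.9 and 133 CPM in DU145 GFP- libraries, also without overlap (log2 fold change -0.32 ± 0.08, limma adjusted p = 0.0163). The XBP1 call was lost without GFP+ replicate 1 (adjusted p = 0.0759) or 2 (0.0501) or GFP- replicate 1 (0.0599) or 3 (0.0594), after quantile normalization (0.086) and with voom on estimated counts (0.0919). DDIT3, which encodes the death-associated factor CHOP, had 11.4, 9.97 and 8.96 CPM in DU145 GFP+ libraries, against 9.99, 9.26 and 7.08 CPM in DU145 GFP- libraries. The DDIT3 groups overlapped and it did not pass (log2 fold change 0.21 ± 0.18, limma adjusted p = 0.39). ATF3, at 0.868 ± 0.368 CPM in DU145 GFP+ and 1.38 ± 0.383 CPM in DU145 GFP- cells (37 estimated counts in GFP+ and 63 in GFP-; log2 fold change -0.73 ± 0.36, limma adjusted p = 0.137), and CEBPB, at 37.3 ± 10.7 CPM in DU145 GFP+ and 42.7 ± 3.89 CPM in DU145 GFP- cells (log2 fold change -0.23 ± 0.16, limma adjusted p = 0.305), did not pass either.

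Of the 3 ER stress sensors, ATF6 rose in DU145 GFP+ cells, with 50.7, 50.05 and 43.6 CPM in DU145 GFP+ libraries, against 38.8, 39.7 and 34.1 CPM in DU145 GFP- libraries (log2 fold change 0.36 ± 0.10, limma adjusted p = 0.0207). ATF6 transcripts have a GC content of 41.3%, near the poorest 20% of genes, and without the GC and length trend the direction turned (log2 fold change -0.05, adjusted p = 0.722). The ATF6 call was also lost without GFP+ replicate 1 (adjusted p = 0.0899) or 2 (0.0792) or GFP- replicate 1 (0.0512) or 3 (0.0946). EIF2AK3, the gene of PERK, had 12.99, 14.5 and 7.699 CPM in DU145 GFP+ libraries, against 7.43, 8.81 and 6.75 CPM in DU145 GFP- libraries. Only GFP+ replicates 1 and 2 stood above the GFP- libraries, and it did not pass (log2 fold change 0.57 ± 0.21, limma adjusted p = 0.0593). ERN1, the gene of IRE1, had 13.4, 12.1 and 12.5 CPM in DU145 GFP+ libraries, against 11.9, 14.2 and 13.5 CPM in DU145 GFP- libraries, with overlapping groups (log2 fold change -0.06 ± 0.14, limma adjusted p = 0.779).

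Of the 17 folding and degradation genes, 4 passed in DU145, or 23.5% beside 27.1% of all genes, a share near the background. Of 11 chaperones and co-chaperones, 2 rose and 1 fell, of 3 protein disulfide isomerases none passed, and of 3 degradation genes 1 rose. HSPA5, the gene of BiP (ENSG00000044574, chromosome 9, 125234853 to 125241330), had 1019.8, 1279.7 and 1158 CPM in DU145 GFP+ libraries, against 1171, 1121 and 1089 CPM in DU145 GFP- libraries, and the GFP+ libraries lay on both sides of the GFP- ones (log2 fold change 0.03 ± 0.08, limma adjusted p = 0.832). HSP90B1, which encodes the ER paralog of HSP90, rose, with 662, 697 and 498 CPM in DU145 GFP+ libraries, against 391, 447 and 408 CPM in DU145 GFP- libraries (log2 fold change 0.56 ± 0.13, limma adjusted p = 0.0112). Its call was lost without GFP+ replicate 1 (adjusted p = 0.0549) or 2 (0.0587). DNAJC3, a co-chaperone of BiP that also inhibits PERK, rose, with 36.2, 34.1 and 24.7 CPM in DU145 GFP+ libraries, against 19.9, 23.3 and 16.1 CPM in DU145 GFP- libraries (log2 fold change 0.68 ± 0.21, limma adjusted p = 0.0345). SEL1L, the scaffold of the ubiquitin ligase that removes misfolded ER proteins, rose, with 62.7, 68.5 and 47.1 CPM in DU145 GFP+ libraries, against 42.3, 37.03 and 36.9 CPM in DU145 GFP- libraries (log2 fold change 0.60 ± 0.15, limma adjusted p = 0.0163). In both genes the 3 GFP+ libraries lay above the GFP- ones, replicate 3 closest to them.

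The DNAJC3 call did not hold once the GC and length trend was taken out (adjusted p = 0.133) or when single libraries were left out (adjusted p = 0.14 without GFP+ replicate 1, 0.118 without GFP+ replicate 2, 0.0873 without GFP- replicate 1, 0.143 without GFP- replicate 3), after quantile normalization (0.0558) or with an eBayes prior without trend (0.0653). The SEL1L call was lost under the first 2 of these kinds of change (adjusted p = 0.556 with the trend removed, 0.0702 without GFP+ replicate 1, 0.078 without GFP+ replicate 2, 0.0681 without GFP- replicate 3). CRELD2, a secreted ER stress-induced protein gene, fell, with 53.6, 60.7 and 68.4 CPM in DU145 GFP+ libraries, against 80.9, 71.5 and 80.8 CPM in DU145 GFP- libraries (log2 fold change -0.36 ± 0.11, limma adjusted p = 0.0342). Its call was lost with the trend removed (adjusted p = 0.117) and when single libraries were left out (adjusted p = 0.155 without GFP+ replicate 1, 0.0934 without GFP+ replicate 2, 0.109 without GFP- replicate 1, 0.118 without GFP- replicate 3), as well as after quantile normalization (0.0814), with voom (0.103) and with an eBayes prior without trend (0.0609). With replicate 3 as the only GFP+ library, none of ATF4, XBP1, ATF6, HSP90B1, DNAJC3, SEL1L and CRELD2 passed, with adjusted p-values from 0.375 for XBP1 to 0.694 for DNAJC3. Among the other genes that did not pass, the log2 fold change was -0.10 for CALR and 0.19 for CANX, the lectin chaperones, -0.12 for HYOU1, an exchange factor of BiP, -0.38 for SDF2L1 and -0.08 for the secreted factor MANF. It was 0.13 for DNAJB11 and 0.61 for DNAJB9, both BiP co-chaperones, in DNAJB9 from 104 estimated counts in GFP+ and 72 in GFP- cells. The disulfide isomerase genes PDIA3, PDIA4 and PDIA6 lay between -0.02 and 0.09. Of the degradation genes, HERPUD1 was at -0.10 and EDEM1, a lectin that recognizes misfolded glycoproteins, at 0.26.

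**Figure D3:**
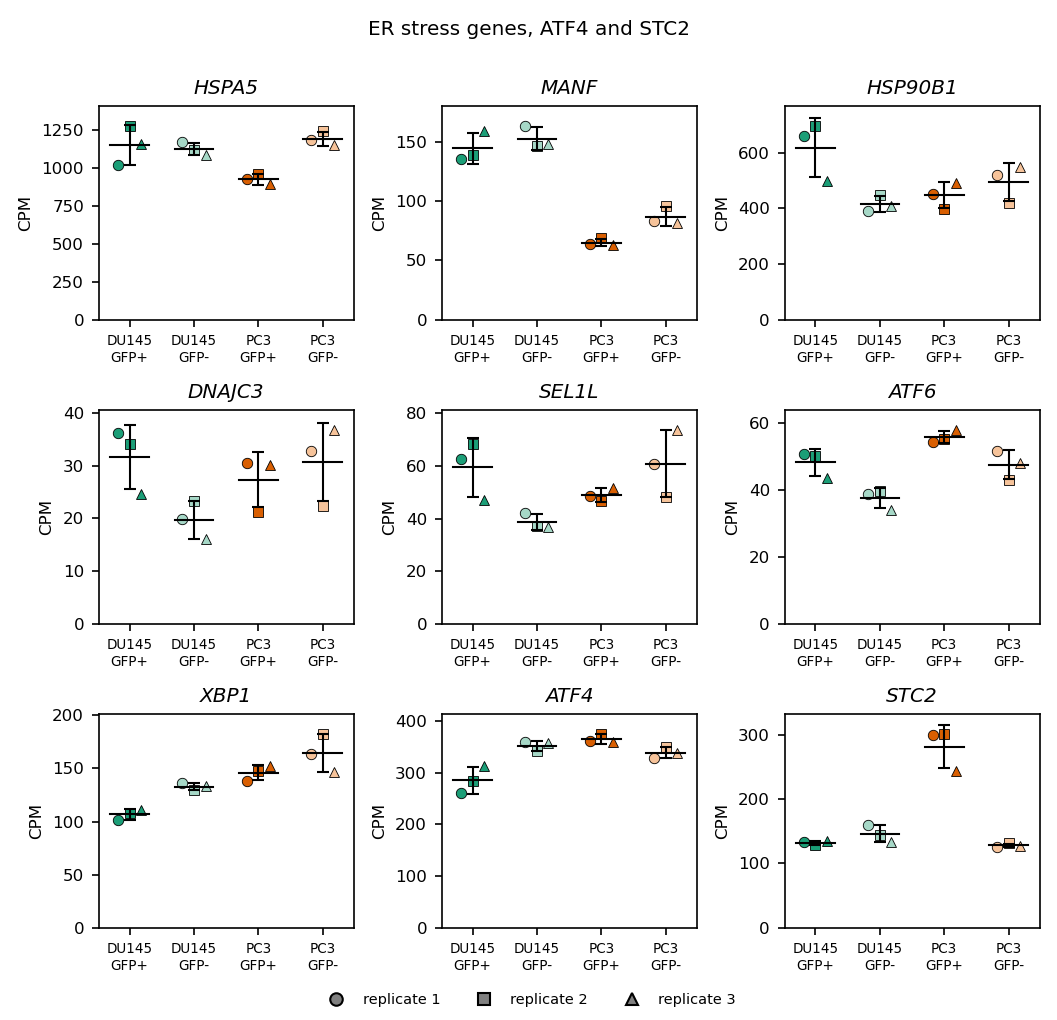
CPM per library (vertical axis, from 0) of ER folding, sensor and transcription factor genes and of STC2 in the 4 groups, with the mean and SD of 3 libraries as lines and the replicate as the symbol. HSPA5 and MANF lie lower in PC3 GFP+ than in PC3 GFP- libraries, and STC2 lies at 243 to 302 CPM in PC3 GFP+ libraries, above all 9 others.

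The same comparison in PC3 gave 3 calls among the 39 genes, 1 higher and 2 lower. Of all genes tested, 9.44% were called, 4.17% higher and 5.27% lower, against 7.69% of the 39, so the count in PC3 was no larger than the background. STC2 (ENSG00000113739, chromosome 5, 173314713 to 173329503) rose, with 300.1, 302 and 243 CPM in PC3 GFP+ libraries, against 126, 131 and 127 CPM in PC3 GFP- libraries. The lowest GFP+ library lay well above the highest GFP- library (log2 fold change 1.13 ± 0.09, limma adjusted p = 4.2e-06, a fold of 2.19), and the call held under all 28 alternatives run. HSPA5 fell, with 926, 963 and 892 CPM in PC3 GFP+ libraries, against 1185, 1245 and 1155 CPM in PC3 GFP- libraries, without overlap (log2 fold change -0.37 ± 0.08, limma adjusted p = 0.0123). MANF, which is secreted and binds BiP, fell, with 63.6, 68.7 and 62.8 CPM in PC3 GFP+ libraries, against 83.3, 96.2 and 81.2 CPM in PC3 GFP- libraries, also without overlap (log2 fold change -0.42 ± 0.09, limma adjusted p = 0.00985). Both lost their calls at equal sample medians (adjusted p = 0.0834 for HSPA5 and 0.0622 for MANF) and with GFP- replicate 1 as the only GFP- library, assumed to vary like those of the other groups (0.151 and 0.155). HSPA5 also lost its call without GFP+ replicate 1 (0.0506) or 3 (0.0555).

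The other ER chaperone genes did not pass in PC3. SDF2L1 (log2 fold change -0.29 ± 0.14, limma adjusted p = 0.227) and CRELD2 (log2 fold change -0.29 ± 0.11, limma adjusted p = 0.135) had the most negative values after MANF and HSPA5, and the groups did not overlap in either. HERPUD1 was at -0.35 and SEL1L at -0.30. Of the 11 chaperones and co-chaperones, 9 had a negative log2 fold change, with a median of -0.14 beside -0.02 over all genes tested. ERN1 had 14.8, 13.3 and 17.5 CPM in PC3 GFP+ libraries, against 11.7, 10.6 and 11.3 CPM in PC3 GFP- libraries, groups that did not overlap (log2 fold change 0.44 ± 0.14, limma adjusted p = 0.0618). ATF6 (log2 fold change 0.23 ± 0.10, limma adjusted p = 0.168) and EIF2AK3 (log2 fold change -0.09 ± 0.21, limma adjusted p = 0.852) did not pass.

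None of the 9 amino acid genes passed in PC3. ASNS had 82.7, 86.6 and 77.9 CPM in PC3 GFP+ libraries, against 78.5, 81.1 and 77.7 CPM in PC3 GFP- libraries, a log2 fold change of 0.06 ± 0.07 (limma adjusted p = 0.714). SLC7A5 had 861, 884 and 819.8 CPM in PC3 GFP+ libraries, against 753, 832 and 736 CPM in PC3 GFP- libraries (0.15 ± 0.08, limma adjusted p = 0.279). PHGDH had 339, 325 and 317 CPM in PC3 GFP+ libraries, against 333, 429.6 and 299 CPM in PC3 GFP- libraries (-0.10 ± 0.11), and GFP- replicate 2 alone stood above the rest. PSAT1, SHMT2, CBS, CTH and SLC3A2 lay between 0.00 and 0.18, and SLC7A11 at 0.47 ± 0.28. CHAC1 had 15.04, 16.1 and 17.4 CPM in PC3 GFP+ libraries, against 13.1, 14.4 and 12.7 CPM in PC3 GFP- libraries, groups that did not overlap (log2 fold change 0.27 ± 0.17, limma adjusted p = 0.377). TRIB3 had 152, 145 and 137 CPM in PC3 GFP+ libraries, against 126, 138 and 118 CPM in PC3 GFP- libraries (log2 fold change 0.18 ± 0.12, limma adjusted p = 0.384). ATF4 had 361, 376 and 359 CPM in PC3 GFP+ libraries, against 329, 351 and 338 CPM in PC3 GFP- libraries, with GFP+ above GFP- in all libraries (log2 fold change 0.11 ± 0.07, limma adjusted p = 0.419). XBP1 (-0.17 ± 0.08), DDIT3 (0.11 ± 0.18), ATF3 (0.43 ± 0.36), CEBPB (0.13 ± 0.16), PPP1R15A (0.27 ± 0.14) and SESN2 (0.17 ± 0.12) did not pass either.

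The difference between the lines was tested as the GFP+ effect in DU145 minus that in PC3. Of the 39 genes, 13 passed, 10 with a more negative effect in DU145 and 3 with a more positive one. Across all genes tested, 15.9% passed, 8.82% more negative and 7.06% more positive, against 33.3%, 25.6% and 7.69% of the 39. The 10 were CHAC1 (-1.44 ± 0.24, limma adjusted p = 0.00184), STC2 (-1.27 ± 0.13), TRIB3 (-0.88 ± 0.16), SLC7A5 (-0.85 ± 0.11), ASNS (-0.83 ± 0.10), CBS (-0.71 ± 0.14), PSAT1 (-0.70 ± 0.09), SHMT2 (-0.68 ± 0.14), SLC3A2 (-0.49 ± 0.13) and ATF4 (-0.41 ± 0.10). SEL1L (0.90 ± 0.22), HSP90B1 (0.70 ± 0.18) and HSPA5 (0.39 ± 0.12) had the more positive effect in DU145. PHGDH, which fell in DU145, did not pass this test (-0.42 ± 0.16, limma adjusted p = 0.0913). ASNS, CHAC1, PSAT1, SLC7A5, STC2 and TRIB3 kept their calls under all 27 alternatives of this test. With replicate 3 as the only DU145 GFP+ library, 6 of the 13 calls were kept. CBS (0.0628), HSPA5 (0.0685), SHMT2 (0.105), ATF4 (0.148), SEL1L (0.183), SLC3A2 (0.239) and HSP90B1 (0.25) did not pass, and with the GC and length trend taken out SEL1L did not (0.0607, all limma adjusted p). HSPA5 lost its call when any 1 of 8 libraries was left out (adjusted p 0.0571 to 0.0874), namely DU145 GFP+ replicate 2, DU145 GFP- replicates 1, 2 and 3, PC3 GFP+ replicates 1, 2 and 3, PC3 GFP- replicate 1. HSP90B1 lost its call when any 1 of 7 libraries was left out (adjusted p 0.0539 to 0.064), namely DU145 GFP+ replicates 1 and 2, DU145 GFP- replicates 1 and 3, PC3 GFP+ replicate 2, PC3 GFP- replicates 1 and 3. SLC3A2 lost its call when any 1 of 8 libraries was left out (adjusted p 0.0586 to 0.0732), namely DU145 GFP+ replicates 1 and 2, DU145 GFP- replicates 1 and 3, PC3 GFP+ replicates 1 and 2, PC3 GFP- replicates 1 and 3. HSPA5 also lost its call at equal sample medians (0.237) and SLC3A2 after quantile normalization (0.058). Over all 27 alternatives, the stricter threshold included, the call was lost in 14 for HSPA5, 13 for SLC3A2 and 10 for HSP90B1.

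Removing the trend in GC content and length left the fall of the amino acid genes in DU145 in place. With the trend removed, 10 of the 39 fell and 2 rose, while 19.9% of all genes were called. Of the 16 DU145 calls, 11 were kept and 5 lost. All 7 amino acid genes, TRIB3 and CHAC1 were among those kept, at log2 fold changes of -0.75 for ASNS, -0.71 for PSAT1, -0.45 for SLC7A5, -0.87 for CHAC1 and -0.19 for SLC3A2, the smallest. XBP1 was at -0.50 (adjusted p = 0.00588) and HSP90B1 at 0.32 (0.00627). PDIA4, an isomerase gene, rose at 0.26 (0.000814). The 5 lost were ATF4, ATF6, CRELD2, DNAJC3 and SEL1L. The log2 fold change of 11 genes changed sign in DU145, ATF6 and 10 that were not called on either set of values. The 10 were HSPA5 (-0.045), CALR (0.085), CANX (-0.11), HYOU1 (0.056), MANF (0.063), DNAJB11 (-0.34), CEBPB (0.084), PPP1R15A (0.052), SESN2 (0.15) and SLC7A11 (-0.52), values without the trend. None of the 39 changed sign in PC3. In PC3, where 19.6% of all genes were then called, 9 of the 39 rose and 3 fell. Several were genes that fell in DU145, namely CHAC1 (0.42, limma adjusted p = 0.0364), TRIB3 (0.29, 0.00268), SHMT2 (0.21, 0.012), SLC7A5 (0.19, 0.00948), PSAT1 (0.17, 0.0445) and ATF4 (0.20, 0.0145). The other 3 that rose were STC2, PPP1R15A and ERN1, and HSPA5, MANF and CRELD2 fell. In the difference between lines 12 of 13 calls were kept, with 23.2% of all genes called.

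**Figure D4:**
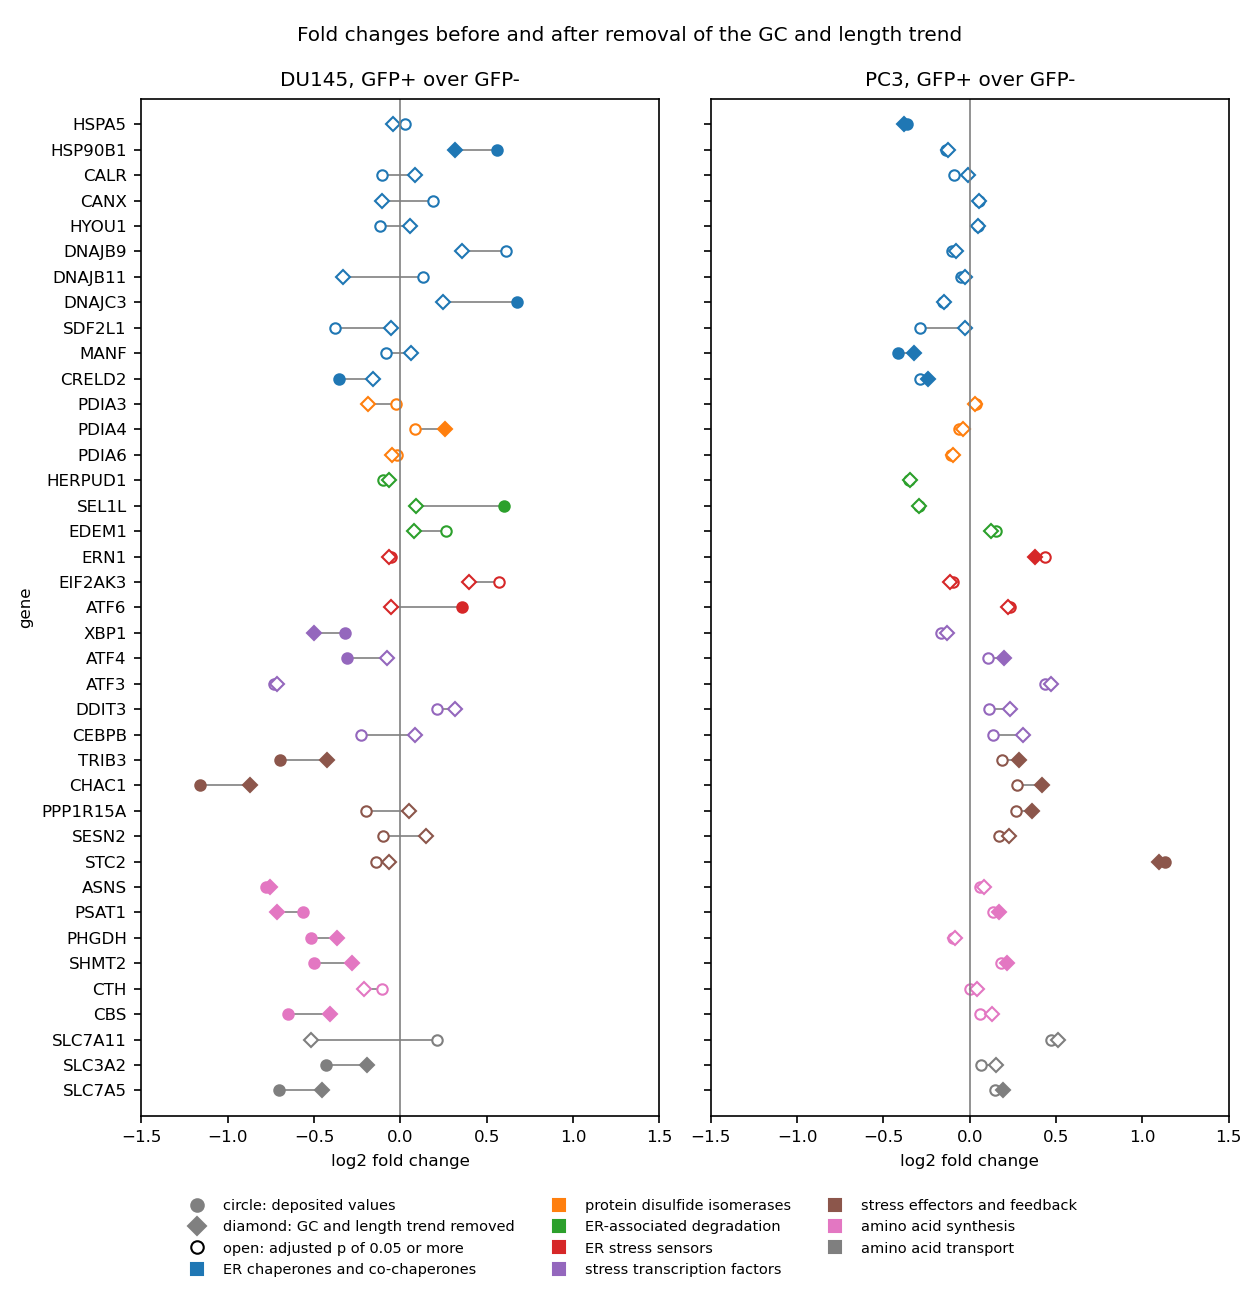
Log2 fold change of GFP+ over GFP- (horizontal axis) for each of the 39 genes as deposited (circles) and without the trend in GC and length (diamonds), DU145 on the left and PC3 on the right. Filled symbols passed an adjusted p of 0.05. ASNS stays near -0.78 in DU145, ATF6 and ATF4 move to near 0, and in PC3 the amino acid and feedback genes lie to the right of 0 apart from PHGDH.

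The level of each gene group in single libraries was described as the median, over its genes, of the log2 value minus the mean of the line. For the 9 amino acid genes it was -0.31, -0.35 and -0.10 in DU145 GFP+ replicates 1 to 3 and 0.30, 0.18 and 0.32 in DU145 GFP- replicates 1 to 3. It was 0.06, 0.11 and 0.01 in PC3 GFP+ and -0.06, 0.08 and -0.14 in PC3 GFP- libraries. The DU145 groups were separate, with GFP+ replicate 3 nearest to the GFP- libraries, and the PC3 groups overlapped through GFP- replicate 2. With the GC and length trend removed the 9 genes stood at -0.15, -0.24 and -0.11 in DU145 GFP+ and 0.19, 0.21 and 0.19 in DU145 GFP-, 0.075, 0.14 and 0.054 in PC3 GFP+ and -0.067, -0.05 and -0.12 in PC3 GFP- libraries, and the groups were then separate in both lines, lower in GFP+ of DU145 and higher in GFP+ of PC3. For the 5 effector and feedback genes it was -0.29, -0.13 and -0.04 in DU145 GFP+ and 0.20, 0.06 and 0.19 in DU145 GFP-, 0.16, 0.13 and 0.15 in PC3 GFP+ and -0.11, -0.03 and -0.21 in PC3 GFP- libraries. On the deposited values these groups were separate in both lines, in opposite order. With the trend removed they overlapped in DU145, at -0.055, -0.11 and -0.012 in GFP+ and 0.16, 0.04 and -0.015 in GFP- libraries, and were separate in PC3, at 0.20, 0.20 and 0.21 in GFP+ and -0.11, -0.30 and -0.13 in GFP- libraries. For the 3 sensors it was 0.26, 0.24 and -0.05 in DU145 GFP+ and -0.13, -0.07 and -0.32 in DU145 GFP-, 0.08, 0.04 and 0.17 in PC3 GFP+ and 0.0048, -0.26 and -0.099 in PC3 GFP- libraries. With the trend removed the sensor groups overlapped in both lines, at 0.06, -0.039 and 0.0044 in DU145 GFP+ and -0.12, -0.0061 and -0.013 in DU145 GFP-, 0.038, 0.0039 and 0.076 in PC3 GFP+ and -0.063, 0.0064 and -0.20 in PC3 GFP- libraries. The median of the 17 folding and degradation genes stayed closer to the line mean, at -0.13, 0.12 and 0.02 in DU145 GFP+ and 0.01, -0.02 and -0.02 in DU145 GFP-, -0.07, -0.02 and -0.04 in PC3 GFP+ and 0.04, 0.08 and 0.06 in PC3 GFP- libraries. Single genes of this group went both ways, which a median does not show. Their log2 fold changes in DU145 ran from -0.38 to 0.68, with 9 positive and 8 negative. DU145 GFP+ replicates 1 and 2, which moved together for the amino acid genes, lay on opposite sides of the mean for the folding genes.

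**Figure D5:**
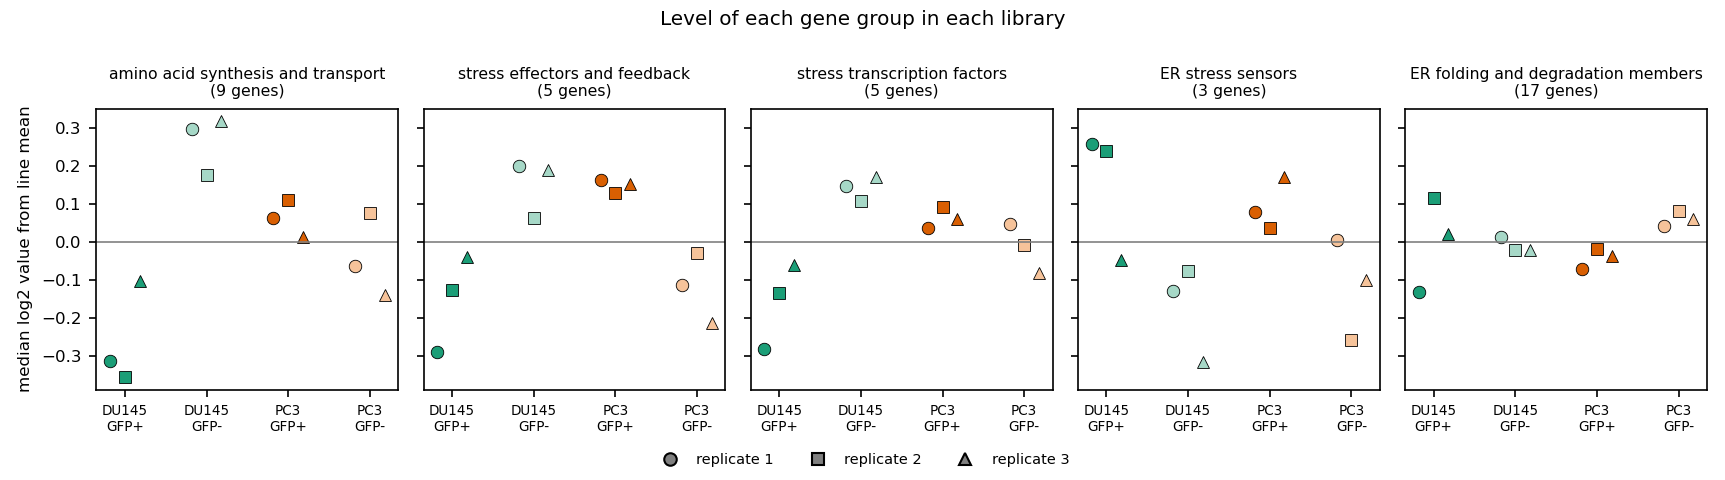
Median over the genes of a group of the log2 value minus the mean of the line (vertical axis) in each of the 12 libraries, by group, with the replicate as the symbol. The amino acid genes reach -0.35 in DU145 GFP+ replicate 2 and 0.32 in DU145 GFP- replicate 3, while all 12 libraries lie between -0.13 and 0.12 for the folding and degradation genes.

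The lines themselves were compared over the mean of both sorts. Of the 39 genes, 16 were higher and 13 lower in DU145 than in PC3, or 74.4%, where 77.5% of all genes passed, 38.3% higher and 39.2% lower, so the number was near the background. SLC7A11, the cystine carrier gene (chromosome 4, 138164097 to 138242349), differed the most. It stood at 1.74 to 3.12 CPM in the 6 DU145 libraries and at 18.04 to 44.2 CPM in the 6 PC3 libraries (log2 fold change DU145 over PC3 -3.65 ± 0.20, limma adjusted p = 1.49e-09). ATF3 (-1.40 ± 0.26), the co-chaperone gene DNAJB9 (-1.28 ± 0.20), CTH (-1.05 ± 0.13) and CHAC1 (-0.91 ± 0.12) were also lower in DU145. PPP1R15A was higher in DU145, with 52.2, 58.4 and 69.02 CPM in DU145 GFP+ and 70.8, 62.6 and 71.9 CPM in DU145 GFP- libraries, against 27.1, 27.2 and 20.1 CPM in PC3 GFP+ and 21.5, 21.1 and 18.6 CPM in PC3 GFP- libraries (1.51 ± 0.10). MANF (0.98 ± 0.06) and HERPUD1 (0.95 ± 0.11) followed. Of the 17 folding and degradation genes, 8 were higher and 1, DNAJB9, lower in DU145. ASNS, TRIB3 and SHMT2 were higher in DU145 over the mean of both sorts (0.55 ± 0.05, 0.57 ± 0.08 and 0.55 ± 0.07). TRIB3 had 143, 139.8 and 195 CPM in DU145 GFP+ libraries and 152, 145 and 137 CPM in PC3 GFP+ libraries, so its GFP+ sorts overlapped. ASNS had 88.4, 92.6 and 90.2 CPM in DU145 GFP+ libraries and 82.7, 86.6 and 77.9 CPM in PC3 GFP+ libraries, so the GFP+ sorts lay close together and the GFP- sorts far apart.

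Levels of different genes were compared per kilobase of the longest annotated transcript. In DU145 GFP+ cells CALR stood at 900.3 CPM per kilobase, HSPA5 at 295 and PDIA4 at 232. The transcription factor gene ATF4 was at 141 CPM per kilobase, far above DDIT3 at 9.47 and ATF3 at 0.413. The sensors were low, at 6.42 for ATF6, 2.52 for EIF2AK3 and 1.61 for ERN1. The same 3 chaperone and isomerase genes led in the PC3 GFP+ cells, CALR at 596, HSPA5 at 237 and PDIA4 at 199 CPM per kilobase.

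Other genes of the pathway were read from lists chosen for their known roles. Of 13 genes for aminoacyl-tRNA synthetases and the tRNA exporter XPOT, 7 fell and 2 rose in DU145 GFP+ cells, with a median log2 fold change of -0.36, and in PC3 1 fell and none rose (median 0.09). That is 69.2% called in DU145 and 7.69% in PC3, beside 27.1% and 9.44% of all genes. CARS, which charges the tRNA of cysteine, stood at 122 ± 8.896 CPM in DU145 GFP+ and 185 ± 10.9 CPM in DU145 GFP- cells (log2 fold change -0.60 ± 0.08, limma adjusted p = 0.00045), and MARS, for methionine, at 311 ± 26.7 CPM in DU145 GFP+ and 470.01 ± 29.3 CPM in DU145 GFP- cells (log2 fold change -0.60 ± 0.08, limma adjusted p = 0.000725). WARS, for tryptophan, fell in both lines (-0.49 ± 0.08 in DU145 and -0.38 ± 0.08 in PC3), and GARS, for glycine, fell in DU145 (-0.38 ± 0.06). With the trend in GC content and length removed, 10 of the 13 fell and 1 rose in DU145, beside 19.9% of all genes called. The cysteine enzyme gene CARS kept -0.53. Of 23 other ATF4 targets tested, 9 fell and none rose in DU145 (median -0.16), and 4 rose and 1 fell in PC3 (median 0.0006), or 39.1% called in DU145 and 21.7% in PC3. On values with the trend removed 7 fell and 3 rose in DU145, and 6 rose and 1 fell in PC3. Of all genes, 19.9% in DU145 and 19.6% in PC3 were called on those values. The glycine transporter gene SLC6A9 had 2.51, 2.14 and 1.98 CPM in DU145 GFP+ libraries, against 7.001, 6.55 and 5.76 CPM in DU145 GFP- libraries (log2 fold change -1.55 ± 0.21, limma adjusted p = 0.000601). ALDH18A1, an enzyme of proline synthesis, fell in DU145 (-0.44 ± 0.07). DDIT4, an inhibitor of mTORC1, fell in both lines (-0.65 ± 0.17 in DU145 and -1.22 ± 0.17 in PC3), and ATF5, a transcription factor related to ATF4, rose in PC3 (0.69 ± 0.11, with fractional counts in 11 of 12 libraries).

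Of 31 other ER folding and degradation genes tested, 8 fell and 4 rose in DU145 (median -0.06) and 1 fell in PC3 (median 0.03), or 38.7% called in DU145 beside 27.1% of all genes and 3.23% in PC3 beside 9.44%. With the trend removed 6 fell and 1 rose in DU145, where 19.9% of all genes were then called. VCP, the ATPase that pulls proteins out of the ER membrane, had 874, 938 and 998 CPM in DU145 GFP+ libraries, against 1413, 1248 and 1342 CPM in DU145 GFP- libraries (log2 fold change -0.51 ± 0.08, limma adjusted p = 0.00152). Its partner gene UFD1L (-0.58 ± 0.11), the translocon gene SEC61A1 (-0.36 ± 0.07) and the disulfide isomerase gene TXNDC5 (-0.32 ± 0.07) fell as well. Of 12 genes for eIF2α kinases, eIF2 subunits, the phosphatase subunit PPP1R15B and eIF2B, 4 fell and 2 rose in DU145 (median -0.01) and 1 fell in PC3 (median 0.01). That is 33.3% lower and 16.7% higher in DU145, beside 13.9% and 13.1% of all genes. In PC3 8.33% were called, beside 9.44% of all genes, a share near the background. With the trend in GC content and length removed, 5 fell and 1 rose in DU145, beside 19.9% of all genes called. The 4 that fell were eIF2B subunit genes, EIF2B3 (-0.47 ± 0.10), EIF2B4 (-0.50 ± 0.12), EIF2B2 (-0.31 ± 0.11) and EIF2B5 (-0.22 ± 0.08), EIF2B5 being named after its value was seen. The eIF2 subunit gene EIF2S2 rose (0.42 ± 0.12), with fractional counts in all 12 libraries. EIF2B2 also fell in PC3 (-0.42 ± 0.11). Of 13 other regulators of the unfolded protein response, 3 fell and 1 rose in DU145 (median -0.09) and 1 fell in PC3 (median 0.04), or 30.8% and 7.69%, both near the background. In DU145 3 fell and 1 rose on the values without the trend, beside 19.9% of all genes called. The 3 that fell were the apoptosis effector genes BAK1 (-0.48 ± 0.12) and BAX (-0.30 ± 0.10) and the ER-bound transcription factor gene CREB3 (-0.46 ± 0.12). The site-2 protease gene MBTPS2, whose product cuts ATF6, rose in DU145 (0.68 ± 0.17) and fell in PC3 (-0.64 ± 0.17), with fractional counts in 11 libraries. Its DU145 call did not hold with the trend removed (limma adjusted p = 0.643).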

How the data were processed

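Total RNA of 12 libraries was sequenced, 3 per group. STAR and DESeq2 are named, with no version, in the submitters' processing notes. The genome build and the way reads were counted: not given in the sources used here. The deposited values are log2 normalized counts per the labels. From the spacing of their lowest values they were read as log2 CPM with an offset of 0.5 counts. Estimated counts computed on that reading were whole, to within 0.01, for 86.9% of genes in the median library.

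Genes reaching a log2 of 0 (1 CPM) in 3 or more libraries were tested (12527 of 18950). limma 3.58.1 (R 4.3.3) was fitted to 4 group means with 8 residual degrees of freedom and a trended eBayes prior. Tests were two-sided, with Benjamini-Hochberg adjustment over all tested genes in each contrast, and the code was tested on simulated data. For the DU145 comparison it recovered 55.2% of changes of 1.5-fold, 67.2% of 2-fold and 90.9% of 4-fold, with false calls at 7.79%. A gene that did not pass may therefore still differ. Members, gene lists and tests were chosen with earlier results of these data known. Genes called in a GFP comparison or in the difference, the sensors, ATF4, XBP1, DDIT3 and HSPA5 were given in full, and of each other list at most 4 called genes with the smallest p. Alternatives covered the minimum, scaling, prior, offset, voom, arrayWeights, threshold, replicate block, each line alone, libraries left out, and a loess correction (span 0.4) for GC content and length from GENCODE 29 (12510 genes). The floor of 3 counts covers counting error only.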

Additional observations from a re-analysis of the deposited data

Results flagged for a closer look

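For 13 genes the effect of the GFP sort differed between the lines by the test of the difference itself (limma adjusted p under 0.05 over 12527 genes, 3 libraries per group). The differences, GFP+ effect in DU145 minus that in PC3 on the log2 scale, were CHAC1 (-1.44), STC2 (-1.27), TRIB3 (-0.88), SLC7A5 (-0.85), ASNS (-0.83), CBS (-0.71), PSAT1 (-0.70), SHMT2 (-0.68), SLC3A2 (-0.49), ATF4 (-0.41), HSPA5 (0.39), HSP90B1 (0.70) and SEL1L (0.90). STC2 was called in PC3 alone, ASNS, PSAT1, SHMT2, CBS, SLC7A5, SLC3A2, TRIB3, CHAC1, ATF4, HSP90B1 and SEL1L in DU145 alone, and HSPA5 in PC3 alone. The fold changes followed GC content in DU145 (Spearman rho -0.63 across genes) and less so in PC3 (-0.10). With that trend removed, 12 of the 13 still passed, the exception being SEL1L.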

How the results depend on the processing

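The number of the 39 genes called in DU145 (16) became 29 with arrayWeights, whose weights did not converge, 9 at an adjusted p under 0.01 and 3 without both DU145 GFP+ replicates 1 and 2 (1 GFP+ library left, assumed to vary like the other groups), and ranged from 9 to 21 when 1 library was left out. In PC3 (3) it became 5 after quantile normalization, 19 with arrayWeights, 5 with voom on estimated counts, 12 with the GC and length trend removed, 13 with that and the replicate block, and 1 without both PC3 GFP- replicates 2 and 3, with 2 to 3 when 1 library was left out. In the difference between lines (13) it became 31 with arrayWeights, 8 at an adjusted p under 0.01 and 6 without both DU145 GFP+ replicates 1 and 2, with 10 to 18 when 1 library was left out. Between the lines (29) it ranged from 23 to 35 over all 27 alternatives, and from 29 to 30 when 1 library was left out. Counts over all genes tested moved too. In DU145 they went from 3389 to 8122 with arrayWeights, 4842 with the replicate block and 784 at an adjusted p under 0.01. In PC3 1182 became 5676 with arrayWeights, 2448 with the GC and length trend removed, 1530 with voom and 1244 after quantile normalization. In the difference 1990 became 7936 with arrayWeights and 708 at an adjusted p under 0.01. The moves were thus not confined to the 39 genes. The cause of these moves was not tested beyond the fewer samples or stricter threshold that some of them have by construction. The split of the DU145 calls was 4 higher and 12 lower as reported, 8 and 9 after quantile normalization and 7 and 10 with voom. Equal medians shifted the median of all genes by -0.13 in the difference between lines and 0.14 between lines, and voom by 0.15 in DU145, 0.13 in the difference and -0.13 between lines. The sign turned for 11 of the 39 genes in DU145 and 7 in the difference with the GC and length trend removed, and for 7 and 6 after quantile normalization and 10 and 5 with voom. Between lines it turned for 5 after quantile normalization, 5 at equal sample medians and 3 with voom. Equal medians also turned it for 2 in DU145 and 4 in the difference. Without both DU145 GFP+ replicates 1 and 2 it turned for 7 in DU145 and 8 in the difference. Without DU145 GFP+ replicate 1 alone it turned for 2 and 4. Turned values that had been called, or passed after turning, were ATF6 in DU145 with the trend removed (log2 fold change -0.052, the same with the block), DNAJB11 in DU145 with the block and the trend removed (-0.34, the same value without the block but not passing), and, after quantile normalization, CALR (0.13) and PDIA6 (0.21) in DU145, CALR in the difference (0.21) and PDIA3 (-0.18) and PDIA4 (-0.0896) between lines. The replicate number was tried as a replicate block and gave 20 calls in DU145, 3 in PC3, 18 in the difference and 31 between lines. Same-numbered libraries correlated at -0.02, 0.09 and 0.21 in DU145 and at 0.06, 0.20 and 0.14 in PC3 after removal of group means, so the numbers were not taken to pair the libraries. In PC3 every library correlated best with its own number, which is a hint from the data only. The fewest estimated counts over the 3 DU145 GFP+ libraries were 37 for ATF3, 104 for DNAJB9, 125 for SLC7A11, 176 for CTH and 227 for CHAC1.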
